A study of Mus musculus with 10 samples.

Results

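The muscle Z-disc is the protein plate at which the actin filaments of neighbouring sarcomeres, the contractile units of striated muscle, are anchored and crosslinked. The genes examined here are 10 chosen by name from the 53465 rows of the count table: *Actn2*, *Actn3*, *Ldb3*, *Myoz1*, *Myoz2*, *Tcap*, *Myot*, *Csrp3*, *Des* and *Flnc*. All 10 were found by their Ensembl identifiers, and all 10 were among the 16426 genes that passed the filter on low counts. RNA-seq was done on pinna prominences, the outgrowths that form the outer ear, dissected from embryos at E14.5 on a C57BL/6J background. There were 5 wild-type (WT) embryos and 5 mEC1dup/dup embryos, which carry an extra copy of mEC1, an enhancer of *Hmx1*, on each allele. The embryos of either genotype had no treatment, and the copy was inserted at the endogenous locus, so its carriage is not limited to a cell type. The question put to these genes was whether the enhancer duplication goes with a different level of Z-disc transcripts in the forming outer ear.

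During muscle development, committed myoblasts leave the cell cycle, fuse into myotubes and then assemble sarcomeres, with alpha-actinin-rich Z-bodies appearing early and maturing into Z-discs. Alpha-actinins crosslink the actin filaments, and PDZ-LIM proteins, myozenins, myotilin and muscle LIM protein dock on them, while telethonin binds the end of titin. Desmin filaments and filamin C tie the discs to each other and to the cell membrane. The outer ear holds auricular muscles, which are skeletal.

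Short stretches of promoter are shown for *Ldb3* and *Csrp3*, which were lower in mEC1dup/dup, and for *Myoz2*, whose ratio to *Myoz1* is described further on. Of the 10 genes, 6 (*Actn2*, *Ldb3*, *Myoz2*, *Csrp3*, *Des* and *Flnc*) were matched by symbol to RefSeq promoter windows of GRCm38.p6, an older build than the GRCm39 positions given for the genes. Each sequence is the 250 bases before an annotated start, 5′ to 3′ on the strand of the gene, and for *Ldb3* and *Csrp3* the table held 2 starts, of which the upstream is shown. Capitals mark every E-box (CANNTG), MEF2 site and CArG box found on either strand. E-boxes are the letters bound by MyoD and its relatives, and MEF2 and SRF, which binds the CArG box, are further regulators of muscle genes.
Ldb3, chr14:34588682-34588931, minus strand: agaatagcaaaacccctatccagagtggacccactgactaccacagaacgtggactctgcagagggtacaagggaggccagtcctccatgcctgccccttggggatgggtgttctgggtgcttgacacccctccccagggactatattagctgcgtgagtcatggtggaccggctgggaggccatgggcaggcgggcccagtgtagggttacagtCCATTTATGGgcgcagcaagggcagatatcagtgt
Csrp3, chr7:48848052-48848301, minus strand: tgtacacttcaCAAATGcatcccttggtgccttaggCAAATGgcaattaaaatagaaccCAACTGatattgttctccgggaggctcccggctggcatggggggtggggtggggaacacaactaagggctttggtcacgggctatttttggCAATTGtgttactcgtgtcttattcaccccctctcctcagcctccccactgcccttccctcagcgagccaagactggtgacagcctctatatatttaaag
Myoz2, chr3:123034988-123035237, minus strand: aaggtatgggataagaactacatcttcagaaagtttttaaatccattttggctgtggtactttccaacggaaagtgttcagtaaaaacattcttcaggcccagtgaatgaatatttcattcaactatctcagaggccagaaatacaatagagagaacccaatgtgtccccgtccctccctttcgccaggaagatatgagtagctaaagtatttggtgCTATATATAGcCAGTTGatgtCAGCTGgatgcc

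The windows differed in what they held. The *Ldb3* window had a CArG box from 35 to 26 bases before the start and no E-box. In the window of *Csrp3* there were 4 E-boxes and neither of the other motifs. *Myoz2* had a MEF2 site from 33 to 24 bases before the start, followed by 2 E-boxes, of which the nearer was CAGCTG. Among the 32851 windows of the RefSeq table, 66.2% held an E-box, 13.0% held CAGCTG, 2.92% a MEF2 site and 1.47% a CArG box. CAAGTG, the core letters bound by HMX proteins, were in none of the windows of the 6 genes and in 11.6% of all windows. CAGCTG is itself an E-box and was counted under both. A match is a description of the letters only, and no binding was measured.

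Total counts ranged from 17461544 to 18462073 per embryo. *Hmx1*, the target of the enhancer, had 21.7 to 29.1 CPM (counts scaled to the TMM-normalized library size) in the WT embryos and 52.9 to 77.5 CPM in the mEC1dup/dup embryos, so each library went with its label. All 11 markers of pinna mesenchyme, cartilage and epidermis passed the filter, and 2 of them, the basal keratins *Krt5* (-0.69) and *Krt14* (-0.64), were called lower, as log2 fold changes, by the test described next. That test called 1.81% of all tested genes lower. *Xist*, the transcript of the inactive X chromosome of female cells, had 5 counts or fewer in each WT library and 12812, 19040, 18165, 2096 and 0 counts in mEC1dup/dup replicates 1 to 5. The embryonic globin genes gave 18.4% to 23.3% of globin counts in WT and 32.5% to 35.6% in mEC1dup/dup. *Xist*, this globin share and the keratins therefore moved with the genotype, and the part of the keratin-bearing epidermis in the results was not tested. No batch is given in the labels.

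All 10 Z-disc genes had a negative log2 fold change in mEC1dup/dup, as had 51.2% of all tested genes, and 3 of the 10 passed the test. These were *Ldb3* (-0.91), *Myoz1* (-1.16) and *Csrp3* (-0.79), whose mean CPM was lower by 46.9%, 55.4% and 42.2%. A gene was called where edgeR's quasi-likelihood test, with adjustment by Benjamini-Hochberg over all tested genes, gave 0.05 or less and the average log2 CPM was 1 or more. Of all 16426 tested genes, 1.81% were called lower and 0.834% higher. None of the 10 was called higher. With the replicate number as a block, 8 of the 10 were called lower, where 2.96% of all tested genes were. No source ties these numbers to a litter, and they were not taken to pair the embryos. At an unadjusted p under 0.05, 9 of the 10 were lower and none was higher, against 9.08% and 7.10% of all tested genes. The median log2 fold change of the 10 genes was -0.56, beside -0.00415 over all tested genes. The summed level of the 10 was 712 to 989 CPM in WT and 506 to 733 CPM in mEC1dup/dup. In these whole-tissue libraries, fewer muscle cells and less RNA per muscle cell cannot be told apart. The *Xist* and embryonic globin differences also moved with the genotype, and their part in these differences was not tested.

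**Figure D1:**
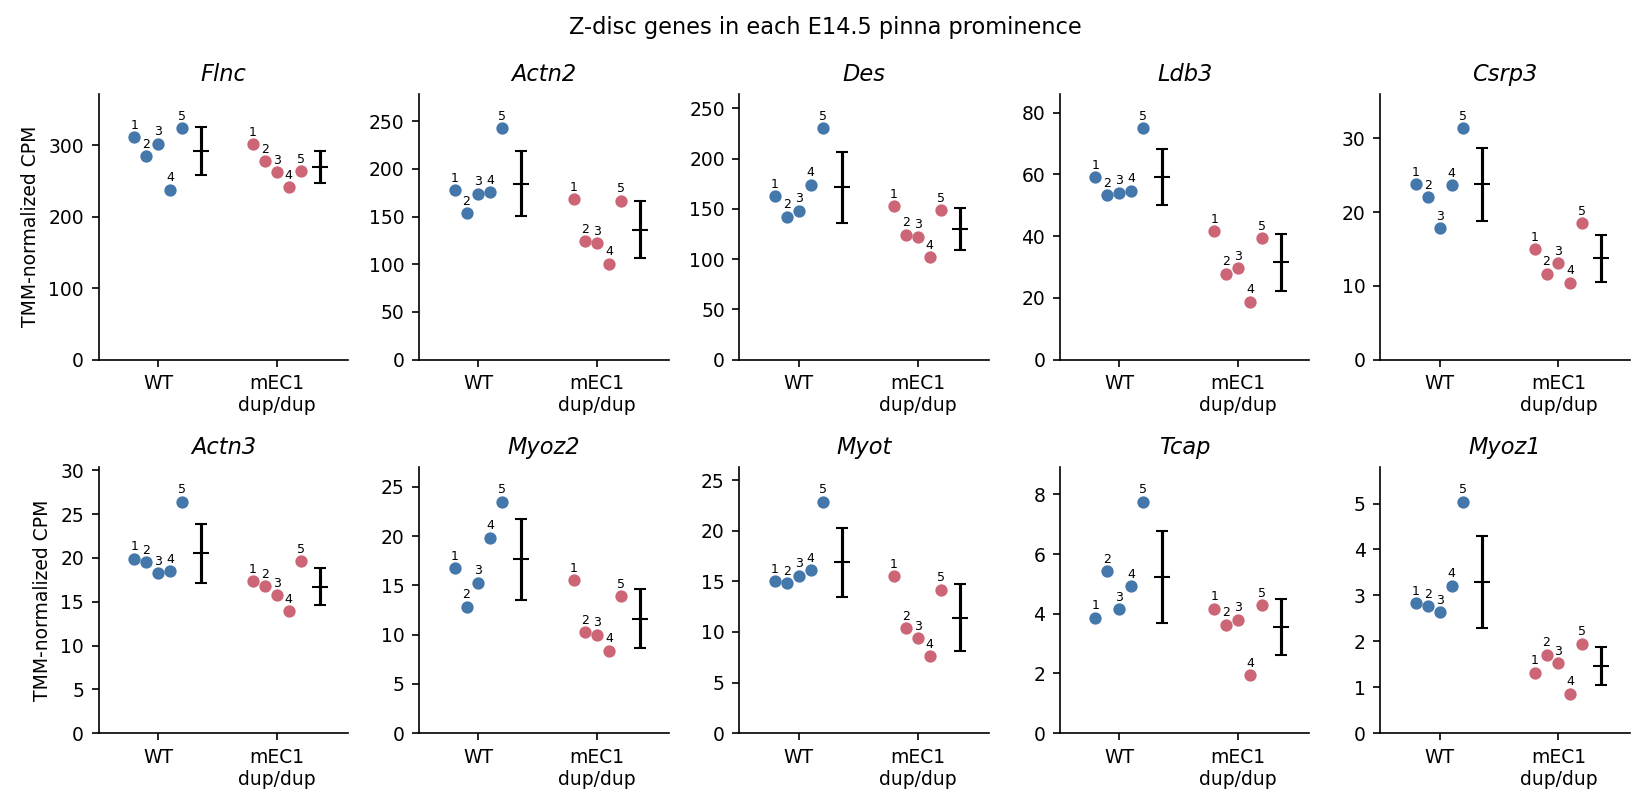
Normalized level of each Z-disc gene (TMM-normalized CPM, linear axes from 0) in the 5 WT and 5 mEC1dup/dup embryos; each point is an embryo, labelled with its replicate number, and the bars give the mean and SD. WT replicate 5 is the highest embryo in all 10 panels, and the genotypes are fully apart for *Ldb3* and *Myoz1*.

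*Ldb3* (ENSMUSG00000021798, chromosome 14 of GRCm39 from 34248056 to 34312351) encodes a PDZ-LIM protein that binds alpha-actinin and helps to hold the Z-disc together under load. It had 59.0, 53.2, 54.1, 54.7 and 74.9 CPM in WT replicates 1 to 5, and 41.5, 27.9, 29.7, 18.8 and 39.4 CPM in mEC1dup/dup replicates 1 to 5. Every mEC1dup/dup embryo was below every WT embryo, and replicate 4 was the lowest. The means were 59.2 ± 9.07 and 31.5 ± 9.22 CPM (SD, n = 5 each), a fall of 46.9%. Its log2 fold change was -0.91 (SE 0.17), and edgeR gave an adjusted p of 0.0159.

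*Csrp3* (ENSMUSG00000030470, chromosome 7 from 48480142 to 48497901) encodes muscle LIM protein, a Z-disc adapter of striated muscle. The WT embryos had 23.8, 22.03, 17.9, 23.6 and 31.4 CPM, and the mEC1dup/dup embryos 15.0, 11.6, 13.0, 10.4 and 18.5 CPM, in the order of their replicate numbers. The groups overlapped only through mEC1dup/dup replicate 5, which was above WT replicate 3. The log2 fold change was -0.79 (SE 0.16), with an edgeR adjusted p of 0.0224. It fell from a mean of 23.7 ± 4.89 to 13.7 ± 3.18 CPM (SD, n = 5 each).

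Myozenins, also called calsarcins, tether the phosphatase calcineurin to the Z-disc. *Myoz1* (ENSMUSG00000068697, chromosome 14 from 20697005 to 20706608), the form of fast fibres, had 2.83, 2.77, 2.64, 3.21 and 5.04 CPM in WT and 1.31, 1.71, 1.52, 0.863 and 1.95 CPM in mEC1dup/dup. The groups did not overlap, although the gene was the least abundant of the 10. Its raw counts were 47 to 91 in WT and 16 to 36 in mEC1dup/dup, the lowest of the 10 genes. The log2 fold change was -1.16 (SE 0.25), with an edgeR adjusted p of 0.0258 at an average log2 CPM of 1.32, close to the minimum of 1. Of all tested genes, 2.75% had every mEC1dup/dup embryo below every WT embryo, as did *Ldb3* and *Myoz1* among the 10. The opposite order, with every mEC1dup/dup embryo above every WT embryo, was found for 2.33% of all tested genes and for none of the 10.

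*Myoz2* (ENSMUSG00000028116, chromosome 3 from 122797610 to 122828664), the form of slow fibres and heart, did not pass the test. It had 16.8, 12.8, 15.3, 19.8 and 23.5 CPM in WT and 15.5, 10.2, 9.99, 8.36 and 13.9 CPM in mEC1dup/dup, and mEC1dup/dup replicates 1 and 5 lay within the WT range. The log2 fold change was -0.61 (SE 0.18), with an edgeR adjusted p of 0.106. *Myoz2* was more abundant than *Myoz1* in each of the embryos also per length. The log2 ratio of *Myoz2* to *Myoz1* was 2.39 ± 0.19 in WT and 2.90 ± 0.39 in mEC1dup/dup (SD, n = 5 each), on log2 CPM with a prior count of 2. The difference of 0.51 had p = 0.0238 in a two-sided exact permutation test over the embryos, and 0.0476 after adjustment over the 2 ratios tested. mEC1dup/dup replicate 1 had the highest ratio (3.45), and the groups overlapped, since replicate 2 had 2.51 and WT replicate 4 had 2.58. Over fits that each dropped 1 embryo the difference ranged from 0.37, without mEC1dup/dup replicate 1, to 0.60. Adjusted over the 2 ratios, the exact test no longer passed 0.05 in 8 of those 10 fits (adjusted p of 0.0635 to 0.0952), and it passed only without mEC1dup/dup replicate 1 (0.0476) or replicate 2 (0.0317). Each such fit has fewer arrangements and so coarser p values, and a lost call cannot be read as an effect of the embryo left out.

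The alpha-actinins are the main crosslinkers of actin in the Z-disc. *Actn2* (ENSMUSG00000052374, chromosome 13 from 12281303 to 12356693), found in all muscle fibres, had 178, 154, 174, 176 and 243 CPM in WT and 168, 124, 122, 101 and 167 CPM in mEC1dup/dup. Replicates 1 and 5 of mEC1dup/dup lay among the WT embryos, and the other 3 were below all of them. The log2 fold change of -0.44 (SE 0.14) came with an adjusted p of 0.140 in the edgeR test.

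*Actn3* (ENSMUSG00000006457, chromosome 19 from 4911215 to 4928529), the form restricted to fast fibres, had 19.9, 19.5, 18.2, 18.5 and 26.4 CPM in WT and 17.3, 16.8, 15.8, 13.9 and 19.7 CPM in mEC1dup/dup. Only mEC1dup/dup replicate 5 reached the WT range. Its log2 fold change was -0.30 (SE 0.11), with an edgeR adjusted p of 0.207. *Ctsf*, on the opposite strand, covers 26.8% of the exonic bases of *Actn3*, and reads from there could have been counted to either gene or dropped. *Ctsf* itself differed by 0.02 on the log2 scale (SE 0.08, with an edgeR adjusted p of 0.936). The log2 ratio of *Actn2* to *Actn3* was 3.16 ± 0.11 in WT (SD, n = 5) and from 2.85 to 3.27 in the mEC1dup/dup embryos. The difference in means of -0.16 did not pass a two-sided exact permutation test (p = 0.143).

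*Myot* (ENSMUSG00000024471) encodes myotilin, an actin-bundling partner of alpha-actinin and filamin C. It had 15.0, 14.8, 15.6, 16.1 and 22.9 CPM in WT and 15.5, 10.4, 9.39, 7.61 and 14.2 CPM in mEC1dup/dup, where replicates 2 to 5 were below every WT embryo and replicate 1 was not. Its log2 fold change was -0.57 (SE 0.18), with an edgeR adjusted p of 0.134. *Tcap* (ENSMUSG00000007877, chromosome 11 from 98274637 to 98275779) encodes telethonin, which caps the end of titin in the Z-disc. Its values were 3.87, 5.42, 4.15, 4.93 and 7.75 CPM in WT and 4.17, 3.64, 3.801, 1.94 and 4.28 CPM in mEC1dup/dup, and apart from mEC1dup/dup replicate 4 and WT replicate 5 the embryos lay close together. The log2 fold change of -0.55 (SE 0.23) went with an adjusted p of 0.254 in the edgeR test.

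*Des* (ENSMUSG00000026208, chromosome 1 from 75320511 to 75345223) encodes desmin, the intermediate filament that links neighbouring Z-discs. It had 162, 142, 148, 174 and 230 CPM in WT and 153, 124, 122, 102 and 149 CPM in mEC1dup/dup. As for *Actn2*, mEC1dup/dup replicates 1 and 5 were within the WT range and the others below it. Its log2 fold change was -0.40 (SE 0.13), with an edgeR adjusted p of 0.140.

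*Flnc* (ENSMUSG00000068699, chromosome 6 from 29433072 to 29461887), which encodes the actin crosslinker filamin C, had the smallest difference. It had 312, 285, 302, 238 and 324 CPM in WT and 302, 278, 263, 241 and 264 CPM in mEC1dup/dup, and the groups overlapped throughout. The log2 fold change was -0.12 (SE 0.08), with an edgeR adjusted p of 0.507. It was the only member whose lowest library was a WT embryo (replicate 4).

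Levels can be compared between the genes only per length, here as CPM per kilobase of exonic sequence. In WT the order was *Des* (33.3 ± 6.83), *Flnc* (30.3 ± 3.46), *Actn2* (17.1 ± 3.13), *Csrp3* (6.10 ± 1.26), *Ldb3* (5.69 ± 0.87), *Tcap* (5.51 ± 1.63), *Actn3* (4.06 ± 0.67), *Myot* (2.42 ± 0.49), *Myoz2* (2.37 ± 0.56) and *Myoz1* (0.703 ± 0.21), each as mean and SD over 5 embryos. The WT ranges of *Des* and *Flnc* overlapped, as did those of neighbours from *Csrp3* to *Actn3* and those of *Myot* and *Myoz2*. *Actn2*, *Csrp3*, *Myot* and *Myoz1* were each fully below the range of the gene before them. In mEC1dup/dup, *Flnc* (27.9 ± 2.30) came before *Des* (25.3 ± 4.07), with overlapping ranges, and *Ldb3* came seventh (3.03 ± 0.89). The annotation gives long exonic totals for some of these genes. With the length of the canonical transcript in its place, a choice made after seeing the data, *Csrp3* had 23.7 ± 4.87 CPM per kilobase in WT, and *Myot* moved up to the sixth place and *Tcap* down to the eighth. The WT ranges of *Des* and *Flnc* were then apart, and those of *Csrp3* and *Ldb3* as well, while all other neighbours overlapped. In mEC1dup/dup *Des* (41.5) then came before *Flnc* (29.5), and *Ldb3* was the fifth (5.52), so the mEC1dup/dup order depends on the length used.

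**Figure D2:**
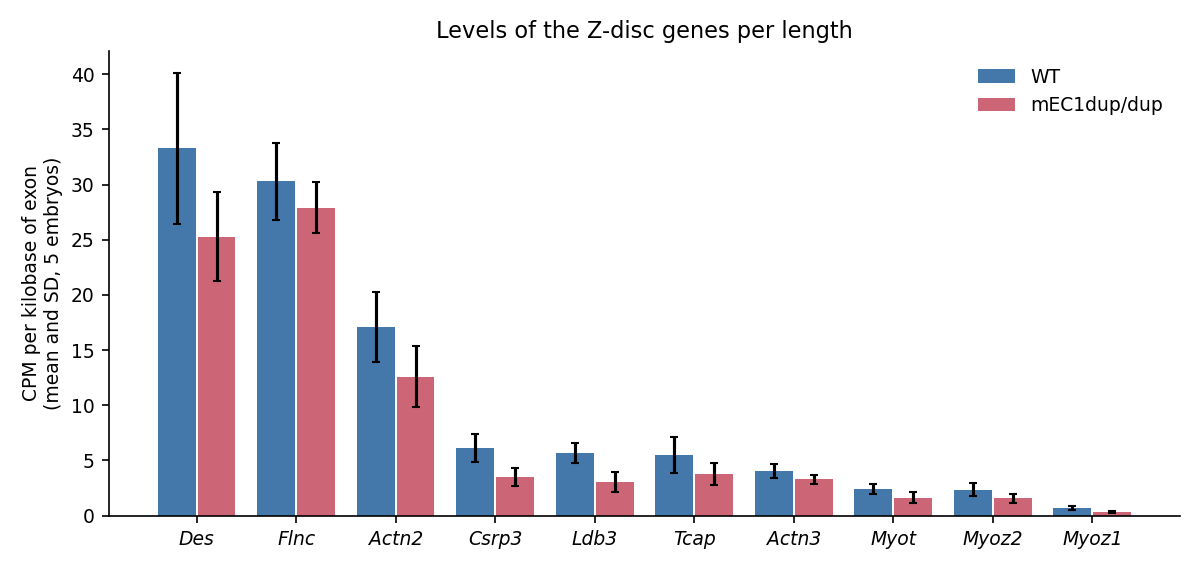
Mean level of each Z-disc gene per kilobase of exonic sequence (CPM per kilobase, linear axis from 0) in WT and mEC1dup/dup; bars are means and error bars SD over 5 embryos. *Des*, *Flnc* and *Actn2* stand above the other genes in both genotypes.

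The 10 genes varied together from embryo to embryo within a genotype. WT replicate 5 was the highest library for all 10, by a median of 0.43 above the WT mean in log2 CPM. mEC1dup/dup replicate 4 was the lowest library for 9 of them, by a median of 0.42 below the mean of its genotype. The highest mEC1dup/dup embryo was replicate 1 or replicate 5 for each gene. Once the genotype means were removed, the 45 pairs of genes had a median Pearson correlation of 0.82 over the 10 embryos. The 36 pairs without *Flnc* ranged from 0.67 to 0.98 (*Actn2* with *Myot*), and the pairs with *Flnc* from 0.30 to 0.60. All pairs share the same libraries, WT replicate 5 and mEC1dup/dup replicate 4 among them, and the correlations are given as a description.

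**Figure D3:**
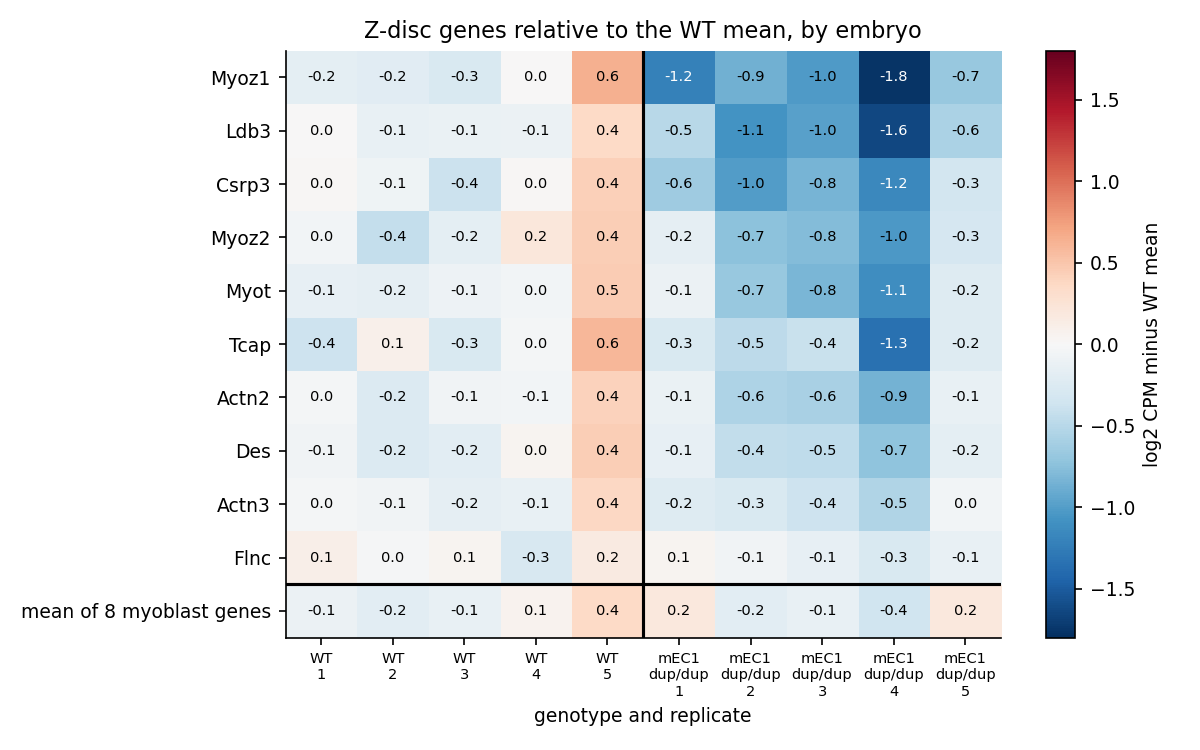
Log2 CPM of each Z-disc gene (rows, ordered by log2 fold change) minus its WT mean in each embryo (columns), with the mean of 8 myoblast genes in the bottom row. Blue cells are below the WT mean; mEC1dup/dup replicate 4 has the lowest value in every row but that of *Flnc*, and the myoblast row changes little between genotypes.

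The genes that act before sarcomere assembly were compared as a group of 8. They were the progenitor factors *Pax7* and *Pax3*, the commitment factors *Myf5* and *Myod1*, the differentiation factor *Myog*, the myoblast cadherin *Cdh15*, and the fusion proteins *Mymk* and *Mymx*. None of the 8 was called in either direction by edgeR's quasi-likelihood test, where 1.81% of all tested genes were called lower, and their median log2 fold change was -0.0062. *Myod1* had 52.4 ± 10.4 CPM in WT and 55.8 ± 7.64 CPM in mEC1dup/dup (SD, n = 5 each). *Myog* had 99.7 ± 20.7 CPM and 108 ± 20.7 CPM. On the log2 scale the differences were 0.09 (SE 0.12) for *Myod1*, 0.12 (0.14) for *Myog*, 0.02 (0.13) for *Mymk*, 0.12 (0.17) for *Mymx*, -0.03 (0.14) for *Cdh15*, -0.06 (0.17) for *Pax7*, -0.27 (0.24) for *Myf5* and -0.56 (0.20) for *Pax3*. Adjusted p from the edgeR test was 0.179 for *Pax3* and at least 0.641 for the others.

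Within a genotype, the mean log2 CPM of these 8 genes followed the Z-disc genes, with a Pearson correlation of 0.95 to their mean z score over the 10 embryos after the genotype means were removed. Between genotypes the mean hardly moved: it was 4.32 ± 0.22 in WT and 4.25 ± 0.24 in mEC1dup/dup (SD, n = 5 each). Its genes were not alike, since 4 of the 8 had a negative log2 fold change, the largest that of *Pax3* (-0.56, SE 0.20). Set against the mean of the myoblast genes in the same embryo, 8 of the 10 Z-disc genes were lower in each mEC1dup/dup embryo than in each WT embryo. Only *Actn3* and *Flnc* overlapped. The same subtraction left 0.974% of all tested genes with every mEC1dup/dup embryo below every WT embryo, against 2.75% without it. The subtracted mean followed the Z-disc genes within a genotype, but it need not follow genes outside muscle. The 0.974% is therefore not a like comparison for the 8 of 10. The difference in this log2 ratio was -0.89 for *Ldb3*, -1.05 for *Myoz1*, -0.73 for *Csrp3*, -0.38 for *Actn2* and -0.33 for *Des*. With the mean of the 8 genes as a covariate in edgeR's test, an alternative added after seeing the data, 7 of the 10 Z-disc genes were called lower, where 2.21% of all tested genes were. These were *Ldb3*, *Csrp3* and *Myoz1* together with *Actn2* (log2 fold change -0.38, adjusted p = 0.00176), *Des* (-0.33, 0.00135), *Myoz2* (-0.52, 0.00481) and *Myot* (-0.50, 0.00782). *Flnc* (-0.10, adjusted p = 0.555), *Actn3* (-0.25, 0.112) and *Tcap* (-0.46, 0.187) were not called.

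**Figure D4:**
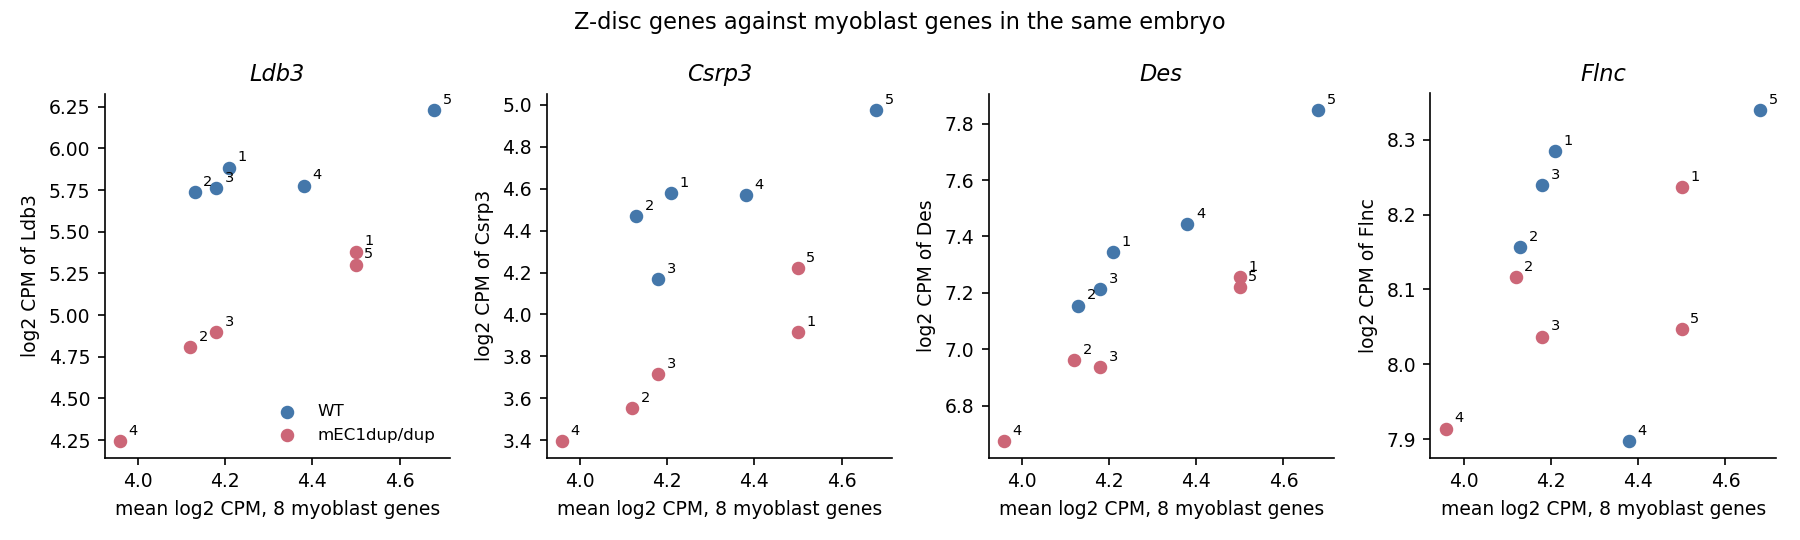
Log2 CPM of *Ldb3*, *Csrp3*, *Des* and *Flnc* (vertical axes) against the mean log2 CPM of 8 myoblast genes (horizontal axis) in the same embryo; each point is an embryo, labelled with its replicate number. For *Ldb3*, *Csrp3* and *Des* the mEC1dup/dup points lie under the WT points of like myoblast level, and for *Flnc* they mix.

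A further list held 26 other proteins of the Z-disc, its border and its desmin collar, of which 23 were tested. The test called 6 of them lower and none higher, where 1.81% and 0.834% of all tested genes were. The largest were *Cavin4*, a caveolar coat protein of muscle (-0.92, SE 0.18), *Ttn*, titin, whose end is anchored in the Z-disc (-0.72, 0.11), *Neb*, nebulin, which lines the thin filament (-0.64, 0.14), and *Nrap*, an actin-anchoring LIM protein of assembling myofibrils (-0.60, 0.12), all as log2 fold changes. Adjusted p from the edgeR test was 0.0188, 0.00632, 0.0320 and 0.0207. The other 2 were *Fhl1* (-0.47, adjusted p = 0.0107) and *Pdlim5* (-0.37, adjusted p = 0.0107). The median of the 23 was -0.37. Of 19 contractile filament and M-band genes, 18 were tested, 9 were called lower and none higher, with a median of -0.52. Among them were *Tnnt3* (-1.06), *Tnni2* (-0.94), *Myh8* (-0.90) and *Acta1* (-0.88).

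**Figure D5:**
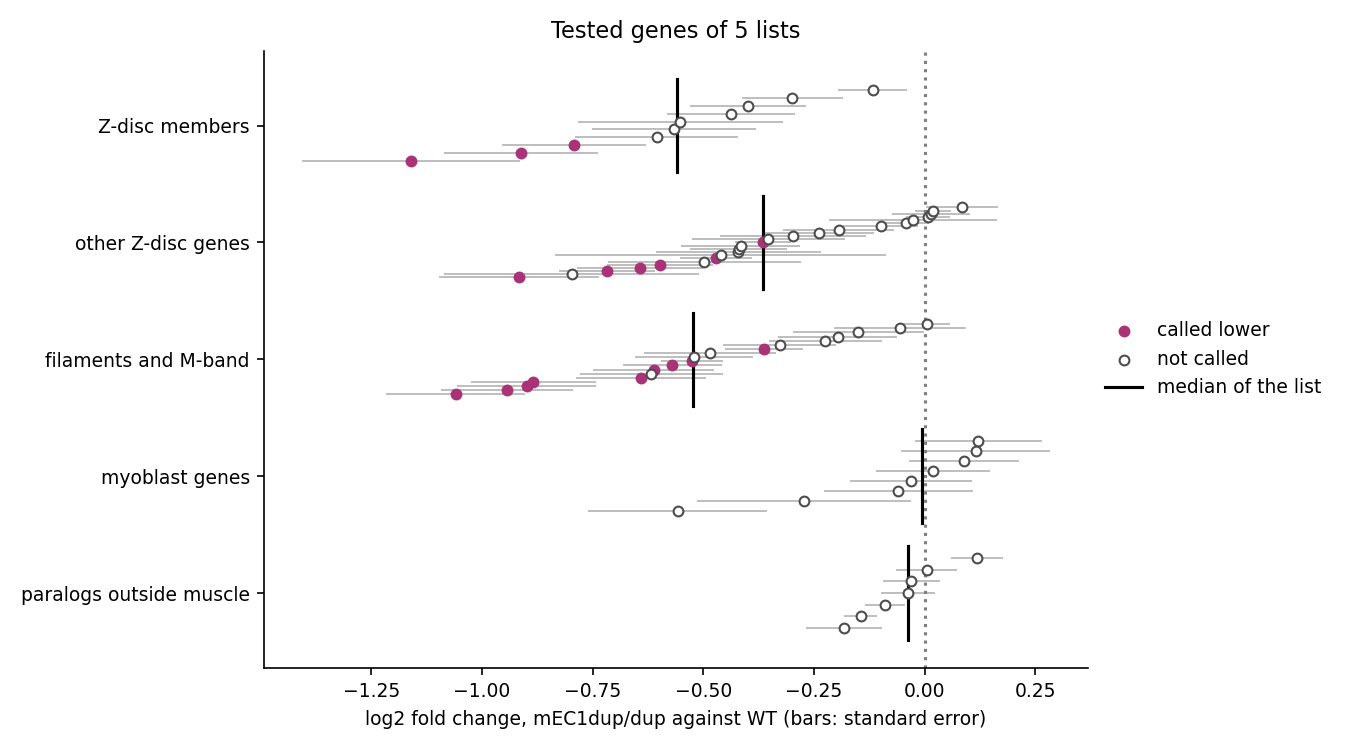
Log2 fold change with its SE (horizontal axis) of each tested gene in 5 lists (rows); filled points passed the test as lower in mEC1dup/dup, open points did not, and black lines are medians. Medians lie at -0.56 for the Z-disc genes, -0.37 for other Z-disc genes, -0.52 for filaments and M-band, -0.0062 for myoblast genes and -0.0377 for paralogs outside muscle.

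Relatives of the Z-disc genes that are used outside striated muscle were not called by the edgeR test in either direction (0 of 7, median log2 fold change -0.0377). The non-muscle alpha-actinins had log2 fold changes of 0.00495 (*Actn1*, SE 0.07) and -0.04 (*Actn4*, 0.06). *Flna*, a filamin of many cell types, had -0.03 (0.06). *Csrp2*, a LIM protein relative of *Csrp3*, had 0.12 (0.06), and vimentin, the intermediate filament of mesenchyme (*Vim*), -0.09 (0.04). *Csrp1* came closest to a call (-0.14, SE 0.04, adjusted p = 0.0539 from the edgeR test), and its groups did not overlap. Every mEC1dup/dup embryo was below every WT embryo, as for 2.75% of all tested genes.

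Some of the 10 genes are also used in other muscle types, so markers of those were read. Of 8 heart markers, 3 were tested and none was called by edgeR's test. On the log2 scale *Nkx2-5* had 0.85 (SE 0.26, edgeR adjusted p 0.111), with every mEC1dup/dup embryo above every WT embryo, *Ryr2* 0.50 (0.30) and *Myh6* -0.61 (0.22). The order seen for *Nkx2-5* was found for 2.33% of all tested genes. The atrial genes *Nppa* and *Myl7* had at most 1 and 2 counts in any library, and the summed level of the list was 3.88 to 7.98 CPM in WT and 5.68 to 10.03 CPM in mEC1dup/dup. Of 7 smooth muscle markers, 6 were tested and none was called. Their sum, most of it *Acta2*, was 286 to 379 CPM in WT and 292 to 376 CPM in mEC1dup/dup. *Cnn1* had a log2 fold change of -0.65 (SE 0.23, edgeR adjusted p 0.163), and its groups did not overlap. Every mEC1dup/dup embryo was below every WT embryo for it, as for 2.75% of all tested genes. The part of heart or smooth muscle cells in the results was not tested. The fast fibre list had 5 tested genes of 9, with *Tnnt3* and *Tnni2*, both counted above on the filament list, called lower, where 1.81% of all tested genes were. All 7 slow fibre genes were tested, and *Myl2* (-1.92, SE 0.31), *Myl3* (-1.36, 0.23) and *Myh7* (-0.64, 0.15), the last also on the filament list, were called lower, as log2 fold changes.

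The number of Z-disc genes called depended on single embryos. Without mEC1dup/dup replicate 2 none of the 10 was called by edgeR's test, where 0.813% of all tested genes were called lower, although 8 of the 10 were lower at an unadjusted p under 0.05, against 7.96% of all. Without mEC1dup/dup replicate 3 none was called either (0.723% of all tested genes), with 9 lower at an unadjusted p under 0.05, against 7.65% of all. Only *Ldb3* was called without mEC1dup/dup replicate 4 (0.995% of all), and only *Ldb3* and *Myoz1* without WT replicate 1 (0.987% of all). The log2 fold changes moved less: over the 10 fits that each left out an embryo, *Ldb3* ranged from -1.03 to -0.77, *Csrp3* from -0.93 to -0.67 and *Myoz1* from -1.29 to -0.96. DESeq2's Wald test on all embryos called 5 of the 10 lower, the 3 above with *Myot* and *Myoz2*, where it called 2.99% of all the genes it tested. At a threshold of 0.01 edgeR's test called none of the 10 and 0.377% of all tested genes.

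Genotype and *Xist* could be parted only in part. mEC1dup/dup replicate 5, the library with no *Xist* count, had 39.4 CPM of *Ldb3* and 1.95 CPM of *Myoz1*. Both were below the lowest WT embryo (53.2 and 2.64 CPM), as was its 14.2 CPM of *Myot* (14.8 CPM). Its 18.5 CPM of *Csrp3* was above the lowest WT embryo (17.9 CPM). *Actn2*, *Actn3*, *Myoz2*, *Tcap*, *Des* and *Flnc* of this library also lay within their WT ranges. When log2 CPM of *Xist* was added to the edgeR fit, none of the 10 genes was called, where 0.00609% of all tested genes were called lower. At an unadjusted p under 0.05, 2 of the 10 were lower, against 5.67% of all, and all 10 estimates were negative, against 51.6% of all. *Ldb3* then had -0.72 (SE 0.28), *Myoz1* -0.90 (0.39) and *Csrp3* -0.47 (0.23) on the log2 scale. The share of embryonic globin, which does not overlap between the genotypes, was added in the same way, and edgeR then called none of the 10 and no other gene lower. At an unadjusted p under 0.05, 2 of the 10 were lower, against 2.35% of all tested genes, and *Ldb3* had -1.08 with an SE of 0.77, against 0.17 without the covariate. Other estimates moved further: *Myoz1* had -2.29 (SE 1.0), *Tcap* -2.12 (0.93), *Myoz2* -1.20 (0.78) and *Des* -0.99 (0.56). Without the covariate these 4 had -1.16, -0.55, -0.61 and -0.40. *Flnc* turned to 0.12 (SE 0.35).

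The genes most like the Z-disc genes across embryos were found by their Pearson correlation with the mean z score of the 10, after genotype means were removed. Over the 10 embryos the closest were *Synpo2l* (0.998), an actin-binding protein of the Z-disc, *Hic1* (0.987), *Sypl2* (0.983), *Myh8* (0.976), *Atp2a1* (0.975), *Casq2* (0.971), *Hjv* (0.971), *Cdh15* (0.969), *Cacna1s* (0.967) and *Acta1* (0.966). *Atp2a1*, *Casq2* and *Cacna1s* encode calcium-handling proteins of the sarcoplasmic reticulum and T-tubule. Their differences between genotypes were not alike: *Acta1* and *Myh8* fell by 0.88 and 0.90 on the log2 scale, *Synpo2l* had -0.19 (adjusted p = 0.498 from the edgeR test), and *Hic1*, a transcriptional repressor, rose by 0.40 (adjusted p = 0.00788 from the same test).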

How the data were processed

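Bulk RNA-seq counts of 5 WT and 5 mEC1dup/dup E14.5 pinna prominences were analysed. The authors used fastp to trim the reads, STAR for alignment to GRCm39 and featureCounts for gene counts, which were deposited raw. Annotation release, strand setting and treatment of reads on several genes are not given in the sources used here. The labels name a NEBNext Ultra kit and the methods a TruSeq kit, neither of which marks strand. Every column was mapped to a sample by its description.

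Symbols, positions and exonic lengths came from GENCODE M39 (GRCm39), which matched 49355 of 53465 identifiers, and unmatched rows held 0.111% of counts. Genes were filtered with filterByExpr, normalized by TMM and fitted with edgeR version 4.0.16 (glmQLFit, glmQLFTest) under R version 4.3.3. Genotype was the sole term, with Benjamini-Hochberg adjustment over all tested genes. The study names limma and edgeR but not the test, and its thresholds were used. CPM were computed from TMM library sizes, and log2 CPM with a prior count of 2. Standard errors are the log2 fold change divided by the square root of F. Alternatives used DESeq2 (version 1.42.0), limma-voom (version 3.58.1), other normalizations, filters, thresholds and covariates, a replicate block, and each embryo left out. Ratios were tested by exact permutation (252 arrangements, smallest p 0.00794).

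Without molecular identifiers, counts stand for fragments and not for independent molecules. The study describes the replicates as separate embryos. mEC1dup/dup replicate 4 had 2096 *Xist* counts, between those of replicates 1 to 3 and that of replicate 5, and the reason was not tested. Chi-square per degree of freedom was 2.56 to 18.2 between libraries of a genotype, so none was a copy of another. In counts simulated for this comparison with 200 changed genes (log2 change of 1) among 16258 tested, 95.3% of those above the minimum level were called, with 10 unchanged genes among 173 called. No smaller change was simulated, so this share does not apply to the smaller differences of most of the 10 genes. The members and lists were chosen with earlier results of these data known. The text names the 10 members, *Hmx1*, *Xist*, up to 4 called genes per list by size, all myoblast genes, the paralogs apart from 1 that is not reported here, and the 10 genes most like the members. *Ctsf*, *Nppa*, *Myl7*, *Nkx2-5*, *Ryr2*, *Myh6*, *Acta2*, *Cnn1*, *Fhl1*, *Pdlim5*, *Tagln*, *Tnnc2* and *Tnni2* are also named, some of them to complete small counts, after their values were seen.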

Additional observations from a re-analysis of the deposited data

Results flagged for a closer look

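Dixon's test for a single far value in a group of 5 was applied to log2 CPM of the 10 genes and *Hmx1* in each genotype, 22 groups in all. Chance alone marks about 1 in 20 such groups. It marked 3. WT replicate 5 was far above the other WT embryos for *Actn3* (gap of 0.761 of the range) and *Myot* (0.809). mEC1dup/dup replicate 4 was far below the others of its genotype for *Tcap* (0.793). WT replicate 5 was also the highest library of the other 8 genes, without passing this limit.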

How the results depend on the processing

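The 10 genes gave 240 log2 fold changes over 24 alternatives, the myoblast covariate among them. Of these, 208 kept direction and side of the threshold, 18 lost a call, 13 gained a call, and 1 reversed: *Flnc* had 0.12 when the embryonic globin share was added to the fit. The 3 members called lower were the same genes with size factors of DESeq2, upper quartile normalization, library totals, no filter, a minimum of 10 counts and limma-voom, under which 1.12% (no filter) to 2.13% (minimum of 10 counts) of all tested genes were called lower. DESeq2's Wald test called 5, limma-voom with sample weights and edgeR's likelihood ratio test 4 each (3.56% and 2.72% of all tested genes, against 1.81% in the quasi-likelihood test), and a threshold of 0.01 called 0, at which 1 other Z-disc gene and 4 filament genes were left. With *Xist* or the globin share as a covariate the counts were 0 for members, other Z-disc genes and filament genes, and the cause was not tested. The myoblast covariate, added after seeing the data, called 7 members and 14 filament genes lower and 1 myoblast gene higher. Leaving out each embryo gave 0 to 3 members, 3 to 7 other Z-disc genes and 5 to 11 filament genes, while the share of all tested genes called lower ranged from 0.723% without mEC1dup/dup replicate 3 to 2.87% without WT replicate 4. The *Myoz2* to *Myoz1* ratio then differed by 0.366 to 0.602. Its test, adjusted over both ratios, did not reach 0.05 in 8 of 10 such fits, where fewer arrangements give coarser p values. The *Actn2* to *Actn3* ratio differed by -0.22 to -0.12, and passed only without mEC1dup/dup replicate 1 (-0.22, exact permutation test, adjusted p = 0.0476).

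WT and mEC1dup/dup libraries share replicate numbers. The study took replicates from siblings of separate litters, but no source ties a number to a litter. The deviations of same-numbered libraries correlated at -0.0558 to 0.345 (mean 0.162, against -0.0403 for other pairs), and 4 of 10 libraries correlated best with their own number, so the numbers were not taken to pair the embryos. With the replicate number as a block, 8 of the 10 genes were called lower, where 2.96% of all tested genes were; *Actn2*, *Actn3*, *Myoz2*, *Myot* and *Des* gained a call (edgeR adjusted p of 0.0142 to 0.0411), and only *Tcap* and *Flnc* had none. Counts as low as those of *Myoz1* and *Tcap* limit their precision.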

Other observations

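In these counts 2 muscle transcripts that overlap other genes were nearly without reads. *Tnnc2*, the fast skeletal troponin C, had at most 1 count in any library, while *Tnni2*, the fast troponin I, had 35.5 ± 6.31 CPM in WT (SD, n = 5), and 68.7% of the exonic bases of *Tnnc2* are shared with *Ube2c* on the opposite strand. *Tagln*, a smooth muscle marker, had at most 10 counts, and 66.7% of its exonic bases are shared with other genes. Among the Z-disc genes the share was 26.8% for *Actn3*, 5.60% for *Des*, 4.83% for *Flnc* and at most 1.93% for the other 7. Whether shared bases lowered any of these counts was not tested.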
